A study of Mus musculus with 8 samples.

Results

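The genes described here were 6 structural non-coding RNAs of the mouse: AY036118, Rn7s1, Rn7s2, Rn7sk, Rpph1 and Rmrp. They were chosen by name, with the abundance of AY036118 and of the 7SL genes in these libraries already known, so their shares of the libraries and their rank by level are descriptions and carry no test. All 6 were among the 49997 genes of the count table, and all 6 passed the minimum for testing, a mean of 10 counts, as did 6901 genes in all. The libraries were made from RNA of EO771, an established mouse mammary carcinoma cell line. EO771 cells received vehicle (2% DMSO in saline) or 12-HETE, a hydroxylated fatty acid made by 12-lipoxygenase, at 100 nM for 48 h (2 libraries each, replicates 4 and 5), or were transduced with an empty vector or with a vector for overexpression of ADAR1 p150, the interferon-inducible form of the RNA-editing enzyme ADAR1 (2 libraries each, replicates 1 and 2). The vector and ADAR1 p150 cells therefore shared a transduction that the vehicle and 12-HETE cells did not have. The number of clones behind the transduced cells was not stated. The study describes its editing comparison of these treatments as independent experiments. How the replicate numbers used here relate to those experiments was not stated. The p-values measure the spread between these libraries, part of which may be technical.

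Total counts ran from 1101767 to 1537037 per library. Adar, the gene of the overexpressed enzyme, had 181 and 140 counts in the ADAR1 p150 libraries and 2 to 8 in the other 6. Of the 8 carcinoma markers examined, the keratin genes Krt8, Krt18, Krt19 and Krt7 had 25 to 150 counts per library, Epcam and Cldn7 had 1 to 8, Cldn4 had 0 to 4, and Cdh1, the gene of E-cadherin, had 0 in all 8 libraries, which allows up to 3 counts per library. The summed counts of 4 leukocyte markers were 0 to 2, and those of 4 fibroblast and endothelial markers were 15 to 58, in which Dcn had 8 to 57.

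7SL RNA, from Rn7s1 and Rn7s2, is the RNA scaffold of the signal recognition particle, which halts translation of secreted and membrane proteins and brings the ribosome to the endoplasmic reticulum. 7SK RNA, from Rn7sk, holds the kinase P-TEFb inactive together with HEXIM proteins and thereby restrains elongation by RNA polymerase II. Rpph1 and Rmrp are the catalytic RNAs of RNase P, which trims the 5′ ends of tRNA precursors, and of RNase MRP, which cuts the ribosomal RNA precursor. These 4 kinds of RNA are made by RNA polymerase III and have no poly(A) tail. AY036118, in contrast, is a non-coding gene whose annotated spans overlap sequence annotated as ribosomal RNA or its pseudogene.

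The sequences that bear on the counts are given here from the GENCODE M21 transcripts of GRCm38. Rn7s1 and Rn7s2 are single-exon genes of 300 bases on chromosome 12, and their transcripts matched at 300 of 300 bases.
Rn7sk (chromosome 9, 78175303 to 78175633, minus strand) has 331 bases, of which the first 300 are shown because its protein partners are described further on. The capitals mark the 3 occurrences of GATC, at bases 13, 42 and 64, a motif of the 5′ hairpin to which HEXIM binds.
Rn7sk: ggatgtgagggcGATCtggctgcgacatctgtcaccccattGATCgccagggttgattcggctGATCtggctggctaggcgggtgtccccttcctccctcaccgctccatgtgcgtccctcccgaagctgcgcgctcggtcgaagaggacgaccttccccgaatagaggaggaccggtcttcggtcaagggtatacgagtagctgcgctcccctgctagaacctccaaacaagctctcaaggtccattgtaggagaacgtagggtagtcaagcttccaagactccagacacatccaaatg
For AY036118 the annotations differed. RefSeq places it at 39848112 to 39898385 of chromosome 17, a span of 50274 bases, and GENCODE M21 places a single exon of 923 bases at 39847113 to 39848035 on the minus strand. The GENCODE transcript was the exact reverse complement of bases 156 to 1078 of Gm42418, an RNA of 1831 bases annotated on the other strand, and it lies within CT010467.1, which GENCODE classes as rRNA. The gene symbols of the count table matched RefSeq for 100% of genes and GENCODE for 76.0%, so the RefSeq span is the one shown. The plus strand of the 200 bases at its lowest coordinates, chr17:39848112-39848311, is given. Capitals mark the 91 bases that also lie in Rn18s-rs5, an 18S ribosomal RNA pseudogene. The strand of the RefSeq gene was not available here, so which end of the gene these bases form is not known.
AY036118 region: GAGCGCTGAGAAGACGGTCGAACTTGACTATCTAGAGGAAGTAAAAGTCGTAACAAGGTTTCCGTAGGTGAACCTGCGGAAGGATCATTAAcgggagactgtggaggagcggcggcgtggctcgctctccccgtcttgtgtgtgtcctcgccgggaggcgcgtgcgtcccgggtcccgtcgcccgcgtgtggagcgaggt

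AY036118 took about as many counts as all other genes together. Vehicle replicates 4 and 5 held 526332 and 578769 of its counts, 12-HETE replicates 4 and 5 held 730801 and 769560, vector replicates 1 and 2 held 544242 and 489519, and ADAR1 p150 replicates 1 and 2 held 645204 and 617114. As a share of the library this was 46.0% and 48.2%, 47.5% and 50.3%, 47.4% and 44.4%, and 45.9% and 45.6%, in the same order. The 95% Wilson intervals of these shares, which cover counting error only, were 44.3% to 44.5% for the lowest library and 50.2% to 50.4% for the highest. The highest share was that of 12-HETE replicate 5 and the lowest that of vector replicate 2, and the vehicle libraries overlapped with the 12-HETE libraries. The vector libraries overlapped with the vehicle libraries, and both vector and both ADAR1 p150 libraries lay below the 12-HETE libraries. With all 6 genes summed, the shares were 45.1% to 50.9%, which left 577741 to 783224 counts per library for the other genes.

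**Figure D1:**
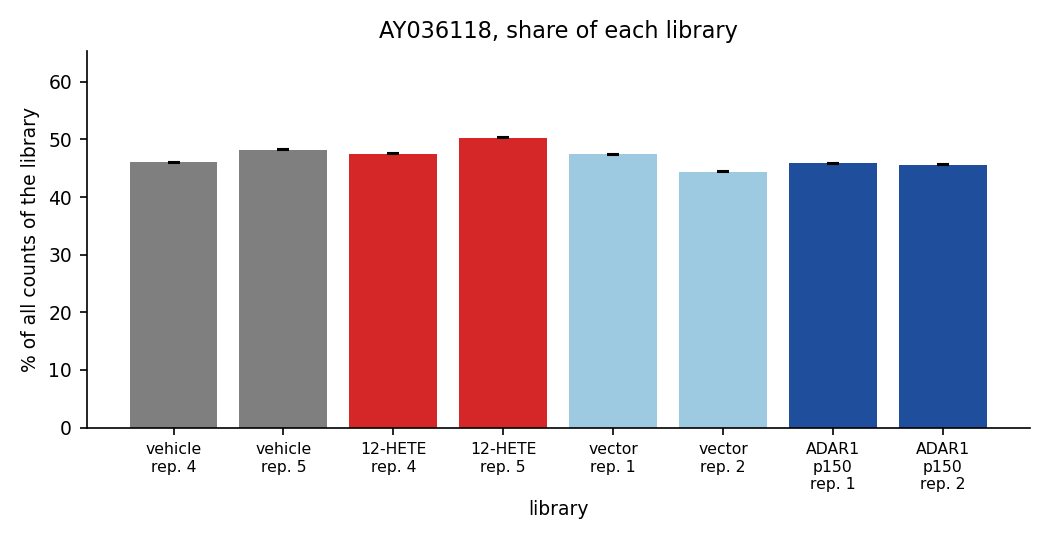
Share of AY036118 in all counts of each library (vertical axis, %; bars, 1 per library, coloured by group; thin error bars, 95% Wilson interval). All 8 bars lie between 44.4% and 50.3%, and the intervals are narrower than the differences between replicates.

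By mean count, AY036118 ranked 1 of the 49997 genes, Rn7s2 ranked 4 with a mean of 7987, and Rn7s1 ranked 7 with a mean of 4955. Rpph1 ranked 259 with a mean of 452, Rmrp ranked 1012 with a mean of 132, and Rn7sk ranked 2601 with a mean of 39.4. The name of abundant RNAs thus held for AY036118 and the 7SL genes in these libraries, while Rn7sk was at 15 to 75 counts. The labels name an mRNA library kit and the study's methods name another kit. The study's text calls its sequencing of vehicle-treated and fatty acid-treated cells total RNA sequencing, and a figure legend also calls it stranded. These descriptions differ, so how RNAs without a poly(A) tail were retained in these libraries is not known. The levels and ranks given here are those of the libraries, not of the cells. Per kilobase of RefSeq length, mean levels in CPM (counts scaled to a common library size, here with trimmed mean of M-values or TMM factors) were 20803 for Rn7s2, 12987 for Rn7s1, 1069 for Rpph1, 373 for Rmrp and 92.7 for Rn7sk. AY036118 was left out of this order because the counted length is not known. Rn18s-rs5, which overlaps the AY036118 span by 91 bases, had 19 to 59 counts.

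Rn7s1 differed more between replicates than any other gene averaging 100 counts or more, of which there were 1270. The SD of log2 CPM within groups, pooled over the 4 groups, was 1.44 for Rn7s1 and ranked 1, against a median of 0.116 over the 1270 genes. Rn7s2 ranked 4 at 0.669, Rpph1 ranked 11 at 0.407 and Rmrp ranked 68 at 0.24, whereas AY036118 ranked 755 at 0.105. Rn7sk, below that mean count, had an SD of 0.602, higher than 98.3% of the 2851 genes whose mean count was within 2-fold of its own.

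**Figure D2:**
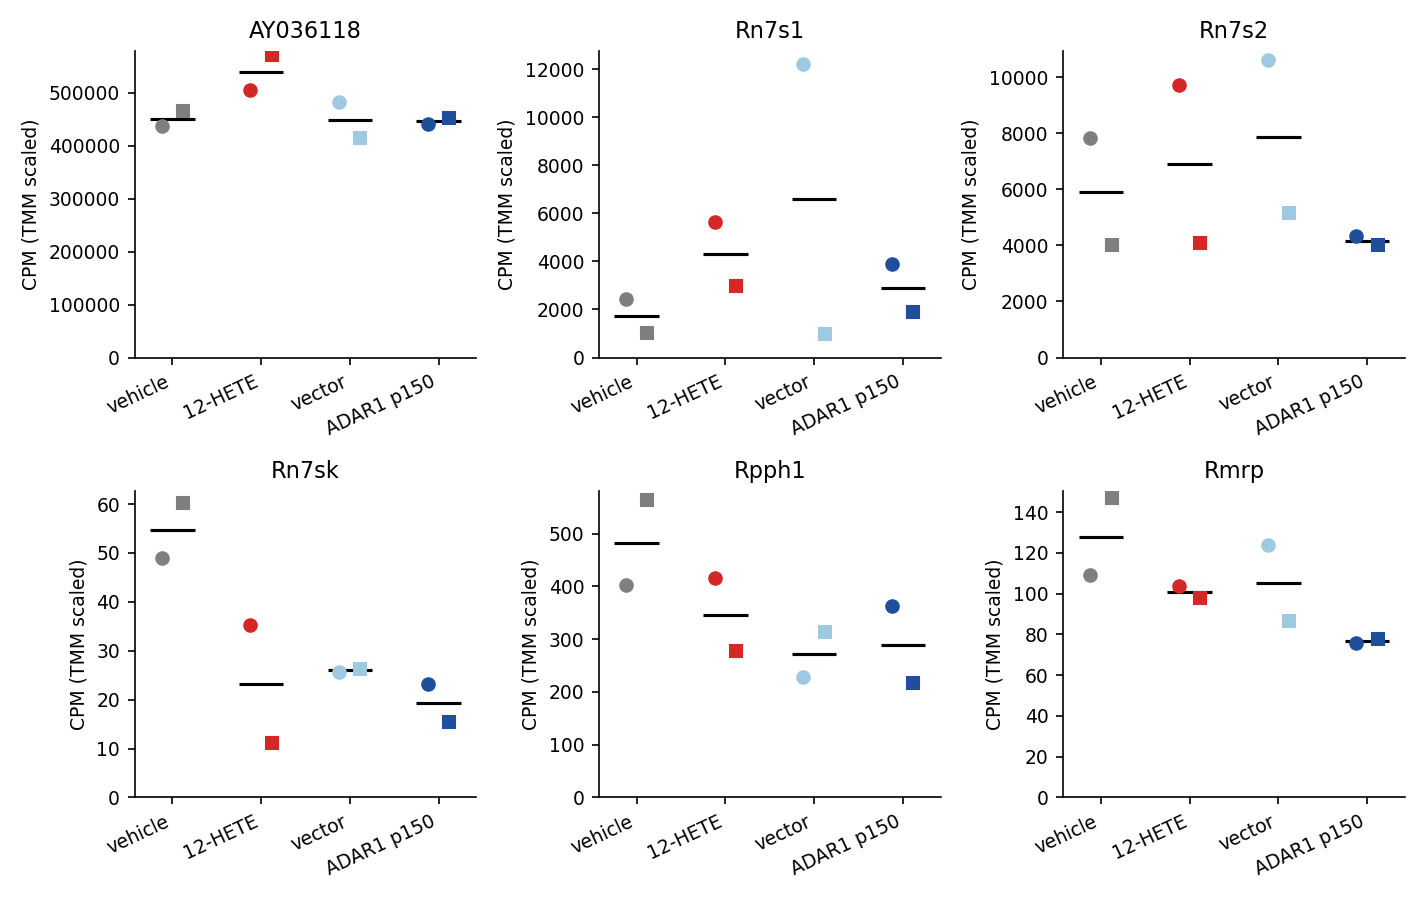
Level of each RNA in every library (vertical axes, TMM-scaled CPM, starting at 0; circles, the lower-numbered replicate; squares, the higher-numbered one; horizontal lines, mean of the 2 libraries of a group). The Rn7s1 panel shows vector replicate 1 at 12205 and vector replicate 2 at 991, and the Rn7sk panel shows both vehicle libraries above all 6 others.

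The comparison of 12-HETE with vehicle asks which RNAs the fatty acid changed in these cells. Rn7s1 was higher and Rn7sk lower with 12-HETE, and the other 4 genes did not reach a 2-fold change. A gene was called when edgeR's quasi-likelihood test gave a Benjamini-Hochberg adjusted p under 0.05 over the 6901 genes and the change was at least 2-fold. By this rule 1 of the 6 genes was called higher, where 6.12% of all tested genes were, and 1 was called lower, where 8.25% were. In either direction 2 of 6 were called, beside a background of 14.4%. The 12-HETE and vehicle libraries did not overlap in CPM for 4 of the 6 genes, and for 64.1% of all tested genes. The median log2 fold change of the 6 was -0.06, and that of all tested genes was 0.00.

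Both vehicle libraries, at 59 and 75 counts, held more Rn7sk than the 12-HETE libraries, at 51 and 15. In CPM this was 49.0 and 60.3 against 35.3 and 11.1, so the groups did not overlap, and the 12-HETE replicates differed 3.17-fold. The log2 fold change was -1.21 ± 0.29 (SE, edgeR adjusted p = 0.00138), and DESeq2 gave -1.25 (adjusted p = 0.0319). Without 12-HETE replicate 5, the library with 15 counts, the value was -0.63 and the call was lost (edgeR adjusted p = 0.112). The 4 libraries of the other experiment, at 15.4 to 26.3 CPM, lay between the 12-HETE libraries.

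Rn7s1 had 2926 and 1268 counts under vehicle and 8151 and 4021 with 12-HETE, or 2428 and 1020 against 5636 and 2985 CPM. Both 12-HETE libraries were above both vehicle libraries. The log2 fold change was 1.32 ± 0.47 (SE, edgeR adjusted p = 0.0311). The call was lost with DESeq2 (1.29, adjusted p = 0.579), with column totals in place of TMM factors (1.14, edgeR adjusted p = 0.118), with at least 10 counts in every library (1.31, edgeR adjusted p = 0.0638), without vehicle replicate 5 (0.76, edgeR adjusted p = 0.195) and without 12-HETE replicate 4 (0.79, edgeR adjusted p = 0.35). Rn7s2, of identical sequence, had 9427 and 4972 counts under vehicle and 14060 and 5526 with 12-HETE, which overlapped, and its log2 fold change was 0.23 ± 0.24 (SE, edgeR adjusted p = 0.527).

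AY036118 was at 436808 and 465469 CPM under vehicle and at 505306 and 571272 CPM with 12-HETE. The log2 fold change of 0.25 ± 0.07 (SE, edgeR adjusted p = 0.00318) was a 1.19-fold increase, below the 2-fold limit. As a share of all counts the increase was smaller: with column totals the log2 fold change was 0.06 (edgeR adjusted p = 0.487), and the median over all tested genes moved from 0.00 to -0.19. With DESeq2 it was 0.23 (adjusted p = 0.107).

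For the RNase RNAs the fitted values with 12-HETE were lower. Rpph1 had 484 and 701 counts under vehicle and 600 and 375 with 12-HETE, or 402 and 564 against 415 and 278 CPM, and the groups overlapped. Its log2 fold change was -0.48 ± 0.17 (SE, edgeR adjusted p = 0.0282, below the 2-fold limit), with a DESeq2 adjusted p = 0.457. Rmrp had 131 and 183 counts under vehicle and 150 and 132 with 12-HETE, or 109 and 147 against 104 and 98.0 CPM. The Rmrp groups did not overlap, and its log2 fold change of -0.34 ± 0.16 (SE) missed the threshold (edgeR adjusted p = 0.106).

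The comparison of ADAR1 p150 with the empty vector asks what overexpression of the editing enzyme changed. None of the 6 genes was called, beside a background of 12.8% of tested genes in either direction, 8.11% higher and 4.69% lower. Rn7s2 passed the adjusted p by edgeR without reaching 2-fold, and with DESeq2 none of the 6 passed. The groups did not overlap for 3 of the 6 genes and for 60.0% of all tested genes. The median log2 fold change was -0.44 for the 6 and 0.07 for all tested genes.

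Rn7s2 had 11999 and 6083 counts with the vector and 6335 and 5491 with ADAR1 p150. In CPM this was 10618 and 5152 against 4320 and 4024, so both ADAR1 p150 libraries were below both vector libraries. The log2 fold change was -0.92 ± 0.24 (SE, edgeR adjusted p = 0.00454). Without vector replicate 1 it was -0.30 (edgeR adjusted p = 0.339), and DESeq2 on all libraries gave an adjusted p = 0.391.

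Rn7s1 had 13792 and 1170 counts with the vector, a 12.3-fold difference in CPM between replicates, and 5725 and 2589 with ADAR1 p150. The ADAR1 p150 libraries lay between the vector libraries. The log2 fold change of -1.18 ± 0.46 (SE) missed the threshold (edgeR adjusted p = 0.0577) and passed it with RLE factors in place of TMM (-1.27, edgeR adjusted p = 0.0123). Without vector replicate 1 it turned to 1.55 (edgeR adjusted p = 5.6e-06), and without vector replicate 2 or ADAR1 p150 replicate 1 it was -2.07 or -1.80 and called. The direction of Rn7s1 in this comparison was thus set by 1 library.

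The remaining genes did not pass the test. AY036118 was at 481610 and 414626 CPM with the vector and at 439993 and 452207 CPM with ADAR1 p150, and its log2 fold change was -0.01 ± 0.07 (SE, edgeR adjusted p = 0.959). Rn7sk had 29 and 31 counts with the vector and 34 and 21 with ADAR1 p150, and its log2 fold change was -0.42 ± 0.34 (SE, edgeR adjusted p = 0.414). Rpph1 had 259 and 370 counts with the vector and 532 and 295 with ADAR1 p150, which overlapped, and its log2 fold change was 0.10 ± 0.18 (SE, edgeR adjusted p = 0.751). Rmrp had 140 and 102 counts with the vector and 111 and 106 with ADAR1 p150, with no overlap in CPM, and its log2 fold change was -0.45 ± 0.17 (SE, edgeR adjusted p = 0.0515).

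**Figure D3:**
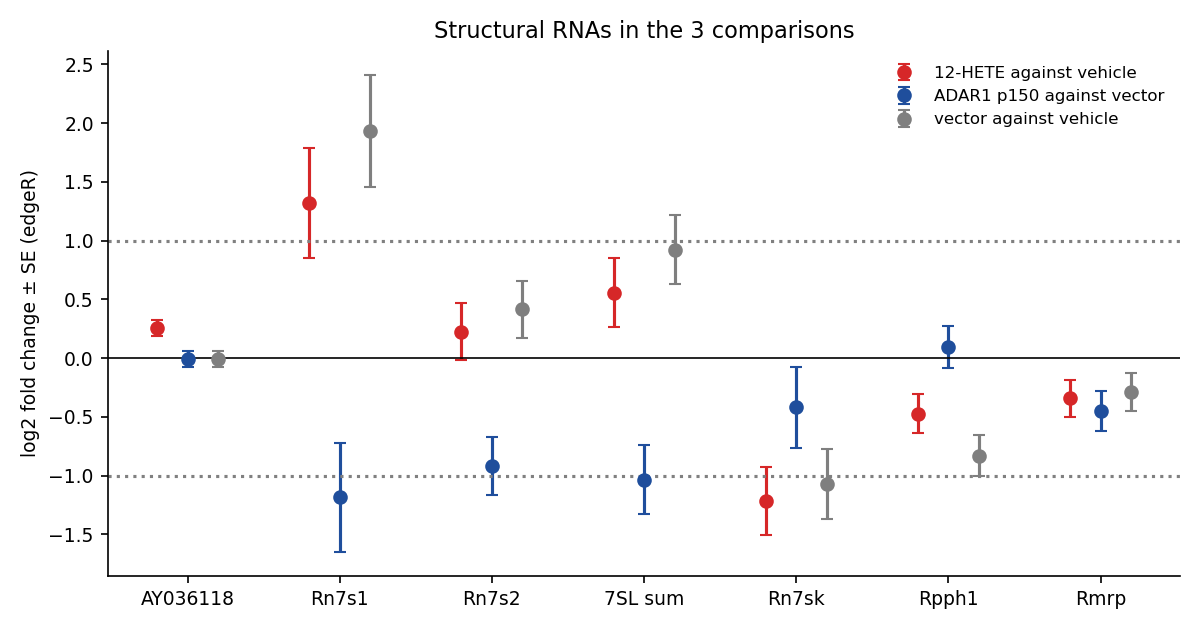
Log2 fold change of each RNA and of the summed 7SL counts in 3 comparisons (points, edgeR estimate; bars, ± SE; dotted lines, 2-fold). Rn7s1 is at 1.32 with 12-HETE and at -1.18 with ADAR1 p150, Rn7sk is at -1.21 with 12-HETE, and vector against vehicle reaches 1.94 for Rn7s1.

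Because Rn7s1 and Rn7s2 have the same sequence, a read within the RNA cannot be assigned to either gene by its bases, and the handling of reads that match several places was not stated. Rn7s1 took 23.7% and 20.3% of the summed counts of both genes under vehicle, 36.7% and 42.1% with 12-HETE, 53.5% and 16.1% with the vector, and 47.5% and 32.0% with ADAR1 p150. The share was lowest in vector replicate 2 (95% Wilson interval 15.3% to 17.0%) and highest in vector replicate 1 (52.9% to 54.1%). The summed counts were 12353 and 6240 under vehicle, 22211 and 9547 with 12-HETE, 25791 and 7253 with the vector, and 12060 and 8080 with ADAR1 p150. In both pairs of groups the summed CPM overlapped, and vector replicate 1 was the highest library at 22823 CPM, 3.72-fold above vector replicate 2.

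Fitted as 1 gene, 7SL had a log2 fold change of 0.56 ± 0.30 (SE, edgeR adjusted p = 0.16) with 12-HETE. When 12-HETE replicate 4 was left out the sign turned (-0.11), and it passed the threshold without vehicle replicate 4 (1.16, edgeR adjusted p = 0.0107) and without 12-HETE replicate 5 (1.01, edgeR adjusted p = 0.0261). With ADAR1 p150 it was -1.03 ± 0.30 (SE, edgeR adjusted p = 0.00854), and without vector replicate 1 it was 0.20 (edgeR adjusted p = 0.551). Leaving out ADAR1 p150 replicate 2 also ended that call (-0.82, edgeR adjusted p = 0.157).

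**Figure D4:**
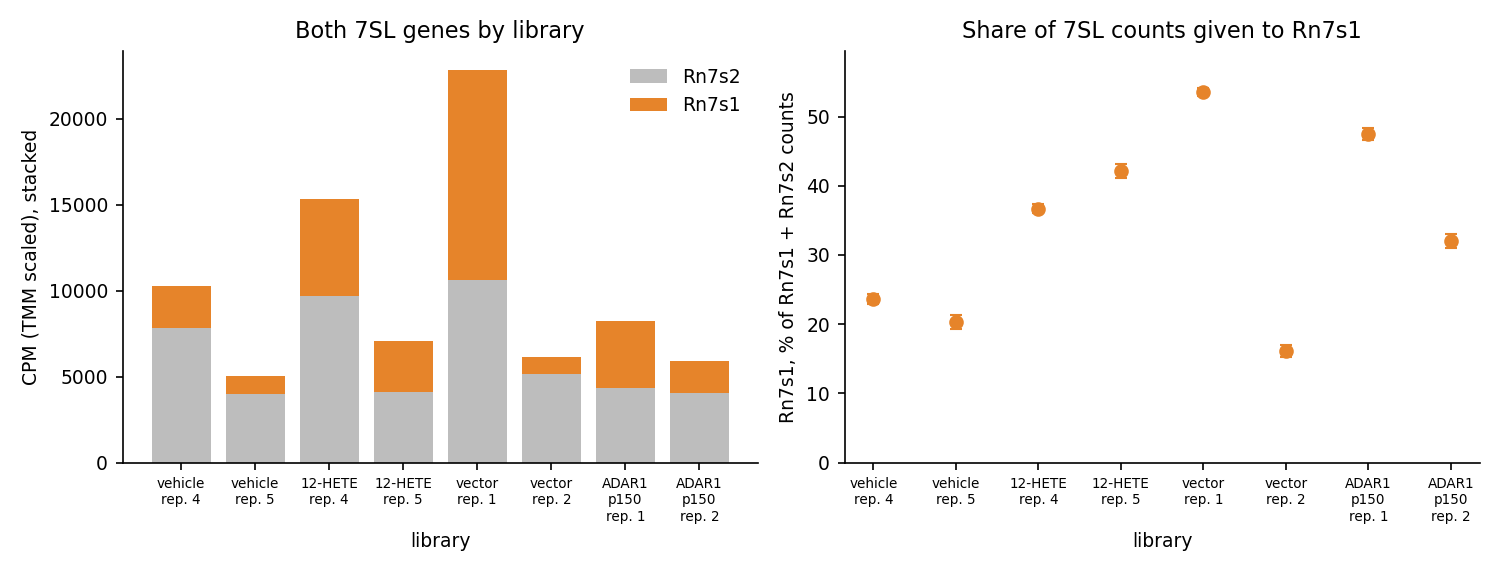
Left, TMM-scaled CPM of Rn7s2 (grey) and Rn7s1 (orange) stacked for each library; right, counts of Rn7s1 as % of the counts of both genes (error bars, 95% Wilson interval). Vector replicate 1 has the tallest bar, 22823 CPM, and the highest Rn7s1 share, 53.5%, while vector replicate 2 has the lowest share, 16.1%.

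The difference between both effects, the 12-HETE change minus the ADAR1 p150 change, was called for 2 of the 6 genes, beside 8.33% of all tested genes. Both were 7SL genes of the same sequence, so the 2 calls are not separate results. The value was 2.51 ± 0.66 (SE, edgeR adjusted p = 0.00757) for Rn7s1 and 1.14 ± 0.34 (SE, edgeR adjusted p = 0.019) for Rn7s2. Neither gene passed with DESeq2, which gave adjusted p = 0.398 and 0.498. Without vector replicate 1 the difference was -0.23 for Rn7s1 (edgeR adjusted p = 0.722) and 0.53 for Rn7s2 (edgeR adjusted p = 0.21). The Rn7s1 call was also lost without 12-HETE replicate 4 (1.98) and without ADAR1 p150 replicate 2 (2.08), and the Rn7s2 call without vehicle replicate 5 (0.73), 12-HETE replicate 4 (0.39), ADAR1 p150 replicate 1 (1.20) and ADAR1 p150 replicate 2 (1.09). For the summed 7SL counts the difference was 1.59 ± 0.42 (SE, edgeR adjusted p = 0.00723), and 0.35 without vector replicate 1 (edgeR adjusted p = 0.434). It was no longer called without 12-HETE replicate 4 (0.93) or ADAR1 p150 replicate 2 (1.37). For AY036118 it was 0.26 ± 0.09 (SE, edgeR adjusted p = 0.0548), and for Rn7sk, which fell with 12-HETE, it was -0.80 ± 0.45 (SE, edgeR adjusted p = 0.262), and it was called only without 12-HETE replicate 4 (-1.87, edgeR adjusted p = 0.0102). With all libraries, an effect on Rn7sk that differed between the treatments was therefore not shown. Values for Rpph1 and Rmrp were -0.57 and 0.11 (edgeR adjusted p = 0.111 and 0.823).

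Between the control groups, vector against vehicle, none of the 6 genes was called, and 0.0435% of all tested genes were. At an unadjusted p under 0.05 edgeR counted 795 of the 6901 genes, and DESeq2 called 0 genes with 232 at an unadjusted p under 0.05. Rpph1 was at 229 and 313 CPM with the vector against 402 and 564 under vehicle, a log2 fold change of -0.83 ± 0.17 (SE, edgeR adjusted p = 0.0366) that did not reach 2-fold, and it was -1.05 without vehicle replicate 4 and -1.08 without vector replicate 2, both called. Rn7sk was at 25.7 and 26.3 CPM with the vector against 49.0 and 60.3 under vehicle, a log2 fold change of -1.07 ± 0.29 (SE, edgeR adjusted p = 0.133). For Rn7s1 the value was 1.94 ± 0.48 (SE, edgeR adjusted p = 0.0882), and it was -0.80 without vector replicate 1. These controls differ in transduction, DMSO and experiment at once, which cannot be told apart.

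Genes of proteins that work with these RNAs or make them, and other structural RNAs, were counted in lists written with earlier results of these data known. The 5 protein lists held 72 genes, of which 27 passed the minimum. With 12-HETE, 3 of the 27 were called lower and 0 higher, where 8.25% and 6.12% of all tested genes were. With ADAR1 p150, 2 were called lower and 0 higher, beside 4.69% and 8.11%.

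Of the partners of 7SK, both HEXIM genes fell with 12-HETE. HEXIM1 and HEXIM2 are the proteins through which 7SK inhibits P-TEFb. Hexim1 had 55 and 50 counts under vehicle and 19 and 14 with 12-HETE, against 46 and 55 with the vector and 64 and 63 with ADAR1 p150. Hexim2 had 360 and 332 under vehicle and 120 and 120 with 12-HETE, against 366 and 388 with the vector and 481 and 470 with ADAR1 p150. Both 12-HETE libraries were below all 6 others for both genes. The log2 fold change with 12-HETE was -1.85 ± 0.27 (SE, edgeR adjusted p = 1.7e-06) for Hexim1 and -1.72 ± 0.12 (SE, edgeR adjusted p = 3.01e-13) for Hexim2. With ADAR1 p150 it was 0.04 ± 0.21 (SE, edgeR adjusted p = 0.922) and 0.04 ± 0.11 (SE, edgeR adjusted p = 0.817). The difference between both effects was called for Hexim1 (-1.89, edgeR adjusted p = 0.000206) and for Hexim2 (-1.76, edgeR adjusted p = 1.34e-09). Each of these calls held in all alternatives run and without any 1 library. The genes are neighbours on chromosome 11, with 12703 bases between them in GENCODE M21. Of the other 2 tested genes of this list of 7, Mepce, the 7SK capping enzyme, and Ccnt1, the cyclin T1 subunit of P-TEFb, were not called (-0.19 and -0.47 with 12-HETE). The median of the 4 was -1.09 with 12-HETE and -0.06 with ADAR1 p150, beside 0.00 and 0.07 for all tested genes. Larp7 and Cdk9, with 4 to 14 and 3 to 7 counts, were below the minimum.

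**Figure D5:**
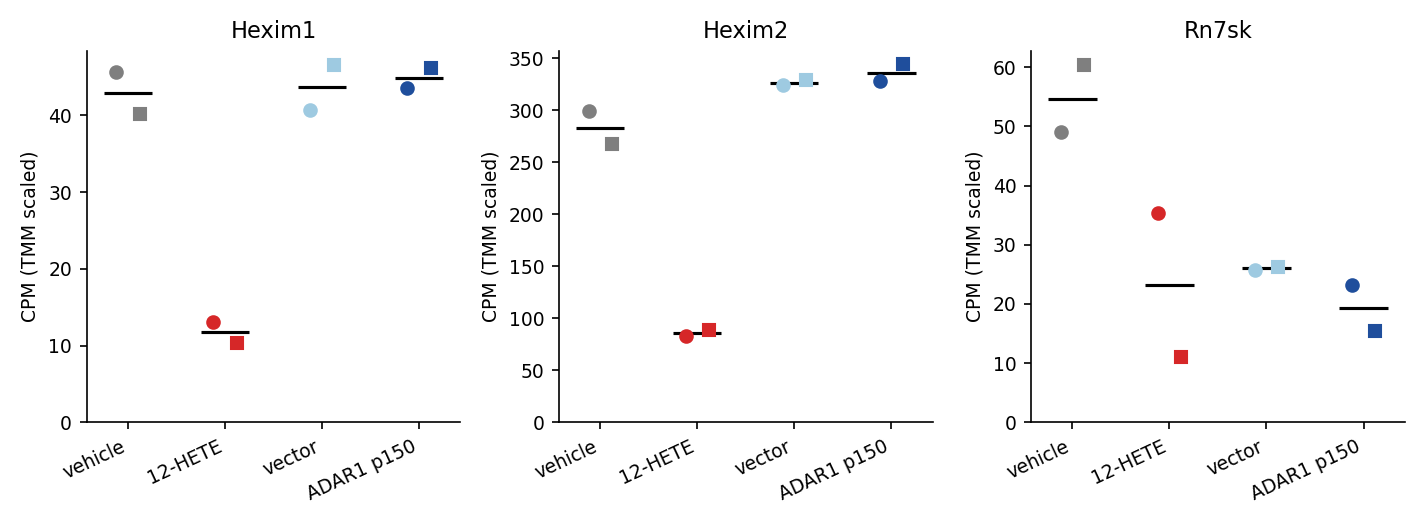
Hexim1, Hexim2 and Rn7sk in every library (vertical axes, TMM-scaled CPM, starting at 0; circles and squares, the lower- and higher-numbered replicate; lines, group means). Hexim1 is at 10.4 to 13.1 CPM with 12-HETE and at 40.2 to 46.6 elsewhere, Hexim2 is at 83.0 to 89.1 against 267 to 344, and Rn7sk separates the vehicle libraries from all others.

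Of 11 SRP proteins and SRP receptor subunits, 4 were tested (Srp9, Srp68, Srp72 and Srpr) and 0 were called in any comparison, with median log2 fold changes of -0.14 for 12-HETE and 0.12 for ADAR1 p150. Srp9 had 11 and 11 counts under vehicle and 33 and 12 with 12-HETE, so at this depth only large changes could be detected. Of 11 RNase P and RNase MRP proteins, Pop5 and Rpp38 were tested and 0 were called, although Rpp38 passed the adjusted p below 2-fold in both treatments (0.42 with 12-HETE and 0.46 with ADAR1 p150, edgeR adjusted p = 0.00762 and 0.00454).

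Of 28 genes of RNA polymerase III and its factors, 11 were tested, of which 1 was called with 12-HETE and 2 with ADAR1 p150, beside 14.4% and 12.8% of all tested genes. With 12-HETE the call was Brf2, the TFIIB-related factor used at promoters of the Rn7sk type, with 13 and 13 counts against 2 and 7 (-1.69 ± 0.55 (SE), edgeR adjusted p = 0.0195), and it was not called by DESeq2 (adjusted p = 0.159) or without vehicle replicate 4 (-1.67) or 12-HETE replicate 4 (-1.02). With ADAR1 p150, Brf1, the related factor for tRNA genes, had 26 and 24 counts with the vector against 11 and 9 (-1.60 ± 0.41 (SE), edgeR adjusted p = 0.00312). Polr3c, a polymerase subunit, had 18 and 18 against 12 and 8 (-1.13 ± 0.40 (SE), edgeR adjusted p = 0.0358), a call that was lost with DESeq2 (adjusted p = 0.201), with no minimum (edgeR adjusted p = 0.0571) and when any 1 of the 4 libraries was left out. The exons of Brf2 overlap those of Adgra2 on the opposite strand by 73 bases and those of Brf1 overlap 9230104M06Rik by 532 bases. Adgra2 had 32 to 62 counts and 9230104M06Rik had 0 to 1. The strand setting of the counting was not stated, so which gene of such a pair received the reads of the shared bases is not known. Other genes named here share this limit. On the opposite strand, Malat1 overlaps Gm37376 by 453 bases and Srp9 overlaps Gm17968 (17 to 47 counts) by 784. Ccnt1 overlaps 9330020H09Rik (325 to 447 counts) by 645 bases, and Snapc3 overlaps Psip1 (91 to 259 counts) by 226. The median of the 11 was 0.01 with 12-HETE and -0.16 with ADAR1 p150. Of 15 genes of RNA polymerase I and its factors, which make the ribosomal RNA precursor, 6 were tested and 0 were called in either treatment.

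Among 35 other structural non-coding RNAs, 28 were in the table and 4 passed the minimum: Rn18s-rs5, the mitochondrial ribosomal RNAs mt-Rnr1 and mt-Rnr2, and Malat1, a long nuclear RNA made by RNA polymerase II. Malat1 had 104 and 144 counts under vehicle and 52 and 33 with 12-HETE (-1.73 ± 0.21 (SE), edgeR adjusted p = 4.29e-08), and 69 and 86 with the vector against 78 and 56 with ADAR1 p150 (-0.50 ± 0.21 (SE), edgeR adjusted p = 0.0724). The difference between both effects was -1.23 (edgeR adjusted p = 0.00389), and without 12-HETE replicate 5 it was -0.99 and not called. mt-Rnr2 had 189 and 351 counts under vehicle, 33 and 138 with 12-HETE, 107 and 249 with the vector, and 32 and 36 with ADAR1 p150. It was called lower with 12-HETE (-1.83 ± 0.31 (SE), edgeR adjusted p = 1.53e-05), where DESeq2 gave an adjusted p = 0.142, and with ADAR1 p150 (-2.67 ± 0.38 (SE), edgeR adjusted p = 1.33e-06). Without 12-HETE replicate 4 or 5 the first value was -1.10 or -3.26, and the second was -1.97 to -3.13 without 1 library, all called. mt-Rnr1, at 1 to 70 counts, was called lower in both treatments by edgeR (-2.57 and -2.61, adjusted p = 0.00109 and 0.015) and in neither by DESeq2 (adjusted p = 0.261 and 0.283). Without vehicle replicate 5, which held 70 of its counts, mt-Rnr1 was at -0.68 with 12-HETE (edgeR adjusted p = 0.555). That call was also lost without 12-HETE replicate 4 (-1.64), and the ADAR1 p150 call was lost without vector replicate 2 (-1.94) or ADAR1 p150 replicate 1 (-2.06). Rn18s-rs5 was not called, with -0.37 for 12-HETE and -0.34 for ADAR1 p150.

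The genes most like each RNA over the 8 libraries were found by the mean absolute difference of log2 CPM, each gene centred on its own mean, among the 1265 others that averaged 100 counts or more. For AY036118 they were Ybx3 and Snapc3 at 0.0497 and 0.051, beside a median of 0.233 over the 1265 genes. For Rpph1 they were Rps3 and Rps2, both genes of the small ribosomal subunit, at 0.109 and 0.124 (median 0.461). Rn7sk was nearest to Tpt1 and Eef2, the latter the gene of translation elongation factor 2, at 0.332 and 0.343 (median 0.642). Rmrp was nearest to A230045G11Rik and Prpf39 at 0.13 and 0.141 (median 0.354). The nearest genes were Mir6340 and Gm51869 at 0.37 and 0.37 for Rn7s2 (median 0.531), and Gm51921 and TrnS1 at 0.698 and 0.705 for Rn7s1 (median 0.933). Rn7s1 and Rn7s2 differed from each other by 0.741, more than Rpph1 differed from Rmrp (0.326) or from Rn7sk (0.366).

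Genes annotated next to these RNAs had few counts. The strand setting of the counting was not stated, and whether these counts reflect the level of the neighbours in the cells was not tested. Rps29, which begins 108 bases from Rn7s1 in RefSeq, had 0 to 6 counts per library, and Nemf, 3981 bases from Rn7s2, had 8 to 29. Parp2, 125 bases from Rpph1, had 3 to 12, and C920006O11Rik, 280 bases from Rn7sk, had 0 to 2. Ccdc107, whose GENCODE exons overlap Rmrp by 124 bases on the opposite strand, had 0 to 3 counts, and Ccnb1ip1, whose exons overlap Rpph1 by 233 bases on the same strand, had 0 in every library. These neighbours were looked at by position, after the values of the RNAs were known.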

How the data were processed

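RNA of EO771 cells was sequenced in 8 libraries. The authors deposited 1 table of raw counts per gene. Per the study's methods, STAR 2.6.0c aligned reads to GRCm38, and fragments were counted with featureCounts 1.6.2. Checks with FastQC and removal of duplicates by prinseq are described for the editing analysis. Whether they also preceded the counting was not stated. The strand setting of the counting and the treatment of multi-mapped reads were not given in the sources used here. For extraction and library the labels name RNeasy and a SMARTER mRNA kit, and the methods name Trizol and an NEB directional kit. For vehicle-treated and fatty acid-treated cells the study's text describes total RNA sequencing, and a figure legend adds that it was stranded. Removal of duplicates, if it was done before counting, limits the count a short abundant RNA can reach, and its part in the values was not tested.

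Groups were taken from the sample titles. The 6 RNAs and all gene lists were chosen with earlier results of these data known. Counts were fitted with edgeR 4.0.16 (R 4.3.3, TMM factors, quasi-likelihood test, 1 fit over 8 libraries with a coefficient per group), with genes at a mean count of at least 10. A call required a Benjamini-Hochberg adjusted p under 0.05 over 6901 genes and a 2-fold change, and SEs were computed as the log2 fold change divided by the root of F. The script was tested on simulated data. DESeq2 1.42.0 and the settings listed in the closing section were alternatives. The summed 7SL counts and the crossed block were added after the data were seen. Shares carry 95% Wilson intervals (scipy 1.17.1), and a count of 0 allows up to 3 counts, and both cover counting error only. Total counts were 1101767 to 1537037 per library, or 603960 to 806236 without AY036118. Patterns were compared on log2(CPM + 1). Replicates of a group differed by more than counting noise (mean chi-square per gene 1.39 to 1.70). Named beside the 6 RNAs were called genes of each list, at most 4 by fold change, all tested structural RNAs, the 2 genes nearest in pattern and overlapping genes. Neighbours, Srp9, Rpp38 and untested partners were added as examples. Loci came from RefSeq (GRCm38.p6) and GENCODE M21. The sequence of the 7SL genes is not reported here.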

Additional observations from a re-analysis of the deposited data

Results flagged for a closer look

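The change with 12-HETE and the change with ADAR1 p150 differed, by the test of the difference in 1 edgeR fit (12-HETE change minus ADAR1 p150 change, log2), for 2 of the 6 RNAs and for 3 genes of the lists. The difference was 2.51 for Rn7s1 and 1.14 for Rn7s2, and without vector replicate 1 it fell to -0.23 and 0.53. These 2 genes have the same sequence, so their calls are not separate results. For the summed 7SL counts the difference was 1.59, and 0.35 without vector replicate 1. The difference was -1.89 for Hexim1, -1.76 for Hexim2 and -1.23 for Malat1, where both 12-HETE libraries were lower than every other library.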

How the results depend on the processing

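Among the 6 RNAs, no call of a change held in every alternative run and without each library. With 12-HETE, 1 of 6 was called with DESeq2, with column totals and with at least 10 counts in every library, and 4 passed the adjusted p without the fold limit. With ADAR1 p150, 1 was called with RLE factors, with library sizes without AY036118, Rn7s1 and Rn7s2 (the 3 most abundant of the 6 RNAs) and in a fit of 4 libraries, 1 at the adjusted p alone and 2 with no minimum. For vector against vehicle, 1 was called with RLE factors, without these 3 RNAs, with no minimum and at the adjusted p alone. For the difference, 0 were called with DESeq2 and 1 with column totals. Over all genes, DESeq2 called 590 (12-HETE), 441 (ADAR1 p150), 254 (difference) and 0 (vector against vehicle), against 991, 884, 575 and 3. The adjusted p alone gave 2021, 1766, 1033 and 8, and 10 counts in every library gave 481, 429 and, for the controls, 0. The controls gave 6 with RLE factors, 9 without these 3 RNAs, 0 with column totals, 11 with no minimum and 1 in a fit of 4 libraries. At an unadjusted p under 0.05, column totals gave 703 and 10 counts in every library 540. Of the 31 tested genes of all 6 lists, DESeq2 called 3 with 12-HETE and 2 with ADAR1 p150, against 6 and 4, and of these 2 and 1 were in the protein lists. The causes were not tested, beyond the smaller number of genes under stricter minimums.

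Near-zero values turned sign. AY036118 was at 0.0254 with ADAR1 p150 under 10 counts in every library, and at 0.0512 (DESeq2), 0.0512 (RLE factors), 0.025 (without these 3 RNAs) and 0.0819 (no minimum) for vector against vehicle. Rpph1 was at -0.0124 with ADAR1 p150 with no minimum, and the difference for Rmrp was -0.0888 with column totals. Leaving out 1 library gave, with 12-HETE, -0.53 to 0.79 for Rn7s2 and -0.11 to 1.16 for summed 7SL. With ADAR1 p150 it gave -2.07 to 1.55 for Rn7s1, -0.11 to 0.11 for AY036118, -0.33 to 0.42 for Rpph1 and -1.69 to 0.20 for summed 7SL. For vector against vehicle it gave -0.80 to 2.82 for Rn7s1, -0.20 to 0.98 for Rn7s2, -0.12 to 0.0943 for AY036118 and -0.31 to 1.58 for summed 7SL. For the difference it gave -0.23 to 3.40 for Rn7s1 and -0.17 to 0.35 for Rmrp. Of 502 fold changes recomputed, 419 kept direction and side of the threshold.

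Mean shares rose when the denominator left out AY036118, to 1.17% for Rn7s2, 0.00588% for Rn7sk, 0.066% for Rpph1 and 0.0194% for Rmrp, and when it left out all 6 RNAs, to 0.746% for Rn7s1, 1.2%, 0.006%, 0.0673% and 0.0198%.

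Replicate numbers are shared within each experiment. Over all tested genes, same-numbered libraries did not deviate together (correlation -0.0776 and -0.112), so they were not treated as pairs. For Rn7s1 and Rn7s2, however, the lower-numbered replicate had the higher CPM in every group, and for mt-Rnr2 the higher-numbered one did. The replicate block called 942, 813 and 506 genes (12-HETE, ADAR1 p150, difference). With the block, Rn7s1 was at 1.38 with 12-HETE (edgeR adjusted p = 5.47e-05) and at -0.39 with ADAR1 p150 (edgeR adjusted p = 0.322). Summed 7SL was at 0.54, -0.77 and 1.31 (12-HETE, ADAR1 p150, difference). Its change with 12-HETE then passed the adjusted p (edgeR adjusted p = 0.0123) but stayed under 2-fold. The summed 7SL call with ADAR1 p150 was lost with the block, since the change fell under 2-fold (edgeR adjusted p = 0.000794), and the block also ended the Polr3c call (edgeR adjusted p = 0.0531), while the numbers of the 6 RNAs called stayed at 2, 0 and 2. Crossing the numbers in the ADAR1 p150 libraries called 921 and 633 genes. A library left alone in its group was assumed to vary like the other groups.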
